A study of Mus musculus with 17 samples.

Results

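The miR-30 family comprises closely related microRNAs (miRNAs), small RNAs of about 22 bases that guide the silencing of messenger RNAs. The part of the data described here is the set of 9 named mature arms of miR-30a to miR-30e. The choice went by name and used no measured value, but earlier results of these data were known when it was made. Of these 9 arms, 7 were rows of the table of 1487 small RNAs (smRNAs), which lists 1439 mature miRNAs. The 7 arms were mmu-miR-30a-5p, mmu-miR-30b-5p, mmu-miR-30b-3p, mmu-miR-30d-5p, mmu-miR-30d-3p, mmu-miR-30e-5p and mmu-miR-30e-3p, written below without the species prefix. The arms miR-30a-3p and miR-30c-5p were not analysed here. A further list of 5 relatives was written down by name, and 4 of them were in the table: miR-30c-1-3p, miR-30c-2-3p, miR-30f and miR-384-5p.

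All 17 libraries were made from exosomes, small membrane vesicles released by cells, precipitated from the feces of mice lacking interleukin 10 (IL-10 KO, on the C57BL/6J background), which serve as a model of inflammatory bowel disease. The mice were obtained at 4 weeks of age, and no treatment is named in the labels. Their ages at collection and the interval between the time points are not given in the sources used here. The start-point group held 10 libraries from 10 mice (7 male, 3 female), and the end-point group 7 libraries from 6 of these mice (5 male and 2 female libraries), since end-point libraries 1 and 2 both carry the label of mouse 1. Every library came from a knockout animal, and no wild-type mouse was analysed here. Vesicles in feces can come from any cell of the gut wall, from blood cells or from the diet, and in such bulk samples fewer vesicles from a cell type and less RNA per vesicle cannot be told apart.

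A miRNA hairpin is cut into a 5p and a 3p arm, and the arm that is loaded into the silencing complex finds its targets mainly through its seed, bases 2 to 8. In the miR-30 family the 5p arms share a seed and are usually the guide strands, while the 3p arms are usually the passenger strands. The family is known for restraining the transcription factor Snai1 and epithelial-to-mesenchymal transition, for targeting autophagy genes such as Beclin 1 and Atg5, and for a role in the balance of proliferation and differentiation in intestinal epithelial cells.

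The sequences are shown because reads of these arms are told apart by few bases. They are RefSeq mature sequences (GRCm38.p6), 5′ to 3′, with the seed in capitals, and 3 of the 7 arms in the table had an entry. No entry was matched for miR-30b-5p, miR-30b-3p, miR-30d-5p and miR-30d-3p. The first set below carries the family seed or a shifted form of it, and the second set holds the 3p arms.
miR-30a-5p: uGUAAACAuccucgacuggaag
miR-30e-5p: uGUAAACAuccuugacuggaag
miR-384-5p: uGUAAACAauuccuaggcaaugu
miR-30f: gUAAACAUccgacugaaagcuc
miR-30e-3p: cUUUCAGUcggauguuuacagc
miR-30c-1-3p: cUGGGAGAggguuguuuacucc
miR-30c-2-3p: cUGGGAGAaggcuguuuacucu

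The arms miR-30a-5p and miR-30e-5p differed at 1 of 22 positions, C13U, counted from 1 at the 5′ end with the base of the first-named arm given first. Among the 1254 mature miRNAs of the table with a RefSeq sequence, 3 had the seed GUAAACA: miR-30a-5p, miR-30e-5p and miR-384-5p. The seed of miR-30f was UAAACAU, the same run of bases moved by 1 position. Over its 19 overlapping bases miR-30f matched the reverse complement of miR-30e-3p at all 19, since the genes lie on opposite strands of 1 locus. The pair miR-30c-1-3p and miR-30c-2-3p shared a seed and differed at 3 of 22 positions, G9A, U12C and C22U. How reads that fit several of these arms were assigned is not given in the sources used here, so the values of near-identical arms carry that uncertainty. The same holds for the use of strand between miR-30f and miR-30e-3p.

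The genes lie in 3 clusters and 1 lone locus on GRCm38.p6. Mir30a (chr1:23272269-23272339) and Mir30c-2 (chr1:23291701-23291784) are 19361 bases apart, and Mir30a overlapped no other annotated gene of GENCODE vM21, while Mir30c-2 overlapped an exon of the long noncoding RNA Gm27028. Mir30b (chr15:68337415-68337510) and Mir30d (chr15:68341208-68341289) are 3697 bases apart and overlap exons of noncoding transcripts (Gm26621 for Mir30b, Gm20732 and Gm37296 for Mir30d). Mir30c-1 (chr4:120769534-120769622) and Mir30e (chr4:120772606-120772697) are 2983 bases apart in introns of Nfyc, which codes for a subunit of the CCAAT-binding factor NF-Y. Mir30f lies at the coordinates of Mir30e on the other strand, and Mir384 (chrX:105344282-105344369) stands alone.

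Library totals ran from 87527 to 178075 counts at the start-point and from 32320 to 161862 at the end-point. End-point libraries 1, 3 and 7 were under 75000 counts, and the other 4 end-point libraries lay within the start-point range of totals. With those 3 left out, edgeR called 386 smRNAs between time points, beside 402 with all libraries. Taking 3 counts as the smallest level a library can show, this limit lay between 16.8 and 34.3 CPM (counts scaled to a common library total) at the start-point and reached 92.8 CPM in end-point library 3. No pair of libraries agreed within sampling noise (lowest chi-square per degree of freedom 10.1). In edgeR, which called 31.7% of all 1270 smRNAs tested between time points (15.5% lower and 16.1% higher), 1 of 5 tested leukocyte-associated miRNAs was lower and 1 higher at the end-point, and of 9 intestinal-epithelium-associated miRNAs 4 were lower and 3 higher. The summed level of the 6 leukocyte-associated miRNAs in the table ran from 1101 to 4174 CPM at the start-point and from 702 to 3414 CPM at the end-point. For the 9 epithelium-associated miRNAs it ran from 3778 to 19932 CPM and from 3032 to 38181 CPM. Of 3 muscle-associated miRNAs tested 1 was higher, with summed levels of 3 miRNAs of 400 to 2169 CPM and of 334 to 12136 CPM. The 1 erythroid-associated miRNA tested was not called, and the summed levels of 2 were 149 to 1006 CPM and 12.4 to 530 CPM. No member of these 4 lists was at 0 in all libraries of a time point, and their part in the results below was not tested.

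The family was a minor component of the libraries. The 7 arms together held 3590 of 2078981 counts, or 0.173%. Their share of a library averaged 0.186 ± 0.0653% (SD, n = 10) in start-point libraries and 0.196 ± 0.116% (SD, n = 7) in end-point libraries, a difference smaller than the spread between libraries. Without the 3 libraries under 75000 counts the end-point mean was 0.122%. The lowest share was 0.0479% (95% Wilson interval 0.0369 to 0.0622%) in end-point library 4 and the highest was 0.352% (0.309 to 0.401%) in end-point library 7. Both extremes were end-point libraries, and the start-point libraries ran from 0.112 to 0.279%. By mean CPM over all 17 libraries, miR-30b-3p ranked 270 and miR-30e-5p 407 among the 1439 mature miRNAs, and the other 5 arms ranked between 575 (miR-30b-5p) and 1399 (miR-30e-3p).

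**Figure D1:**
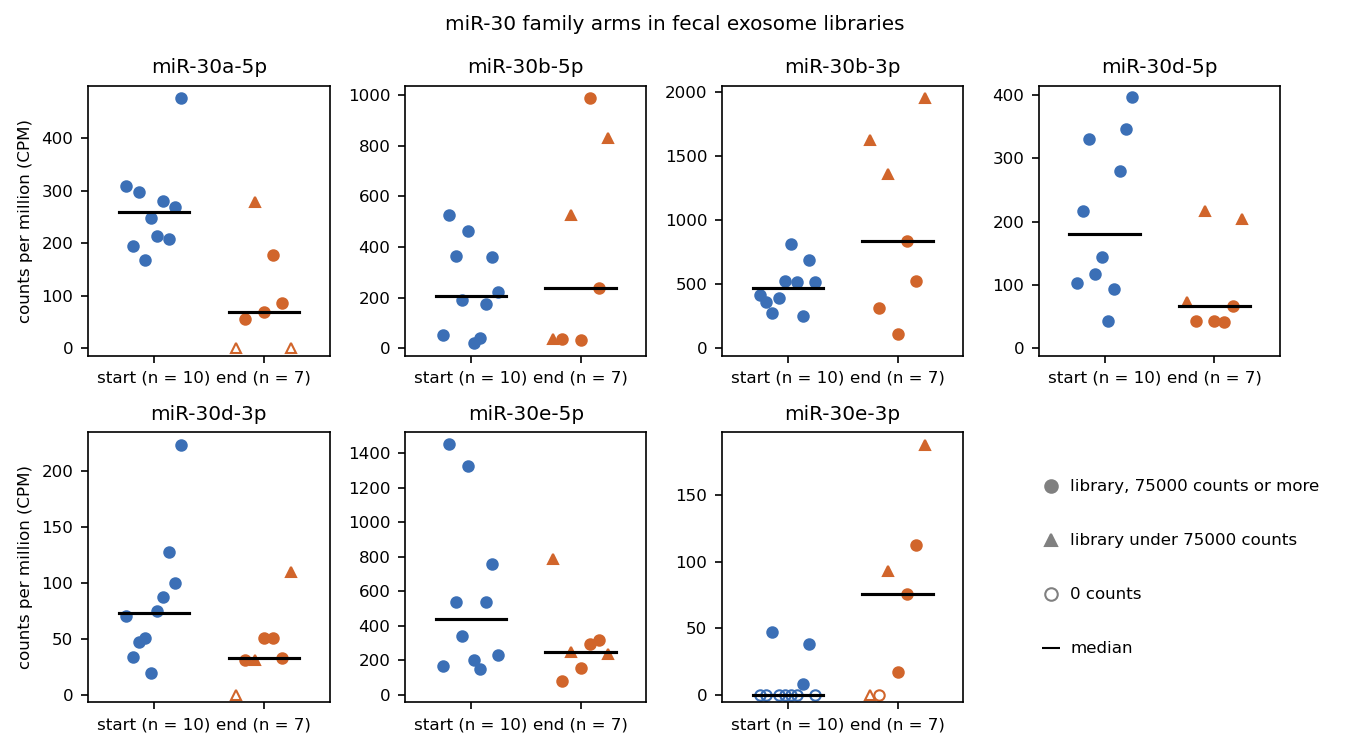
Level of the 7 arms in CPM (vertical axes, linear, 1 scale per panel) in each start-point (blue, n = 10) and end-point (orange, n = 7) library. Triangles are libraries under 75000 counts, open symbols are libraries with 0 counts, and bars are medians; every panel shows overlapping groups, and miR-30e-3p was at 0 in 7 of 10 start-point libraries.

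At the start-point the order of mean levels was miR-30e-5p, miR-30b-3p, miR-30a-5p, miR-30b-5p, miR-30d-5p, miR-30d-3p and miR-30e-3p. Neighbours in this order had overlapping ranges throughout. The steps miR-30e-5p to miR-30b-3p, miR-30a-5p to miR-30b-5p and miR-30b-5p to miR-30d-5p were in that direction in 5 of 10 libraries each, so these neighbours did not differ beyond their spread. The steps miR-30b-3p to miR-30a-5p, miR-30d-5p to miR-30d-3p and miR-30d-3p to miR-30e-3p held in 9 of 10 libraries each. At the end-point the order was miR-30b-3p, miR-30b-5p, miR-30e-5p, miR-30d-5p, miR-30a-5p, miR-30e-3p and miR-30d-3p. Here the step from miR-30b-3p to miR-30b-5p held in 6 of 7 libraries and that from miR-30e-5p to miR-30d-5p in 7 of 7. The other steps held in 2 to 4 of 7 libraries.

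The main contrast, end-point against start-point, asked how the arms differed between the time points. Disease and age cannot be told apart in it, as every mouse was a knockout and older at the end-point. Library depth also differed, since all 3 libraries under 75000 counts were end-point libraries. Of the 7 arms, 5 passed the filter on low counts, and edgeR's quasi-likelihood test called 0 of these 5 at an adjusted p under 0.05. Across all smRNAs tested, 31.7% were called by the same rule. The CPM ranges of the groups overlapped for every arm, while 5.59% of all smRNAs had ranges apart. At an unadjusted p under 0.05, edgeR passed 1 of the 5 arms, miR-30b-3p, where 44% of all smRNAs passed. The DESeq2 Wald test with adjustment called that same arm and 41% of all smRNAs, and limma-voom called 1 arm, miR-30a-5p, and 28.5% of all smRNAs. The median log2 fold change of the 5 arms was -0.54, with 3 of 5 negative, beside a median of -0.19 over all 1270 smRNAs. Fold changes include the TMM factors, and with library totals only the median over all smRNAs was -0.66, so values near 0 depend on the scaling.

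**Figure D2:**
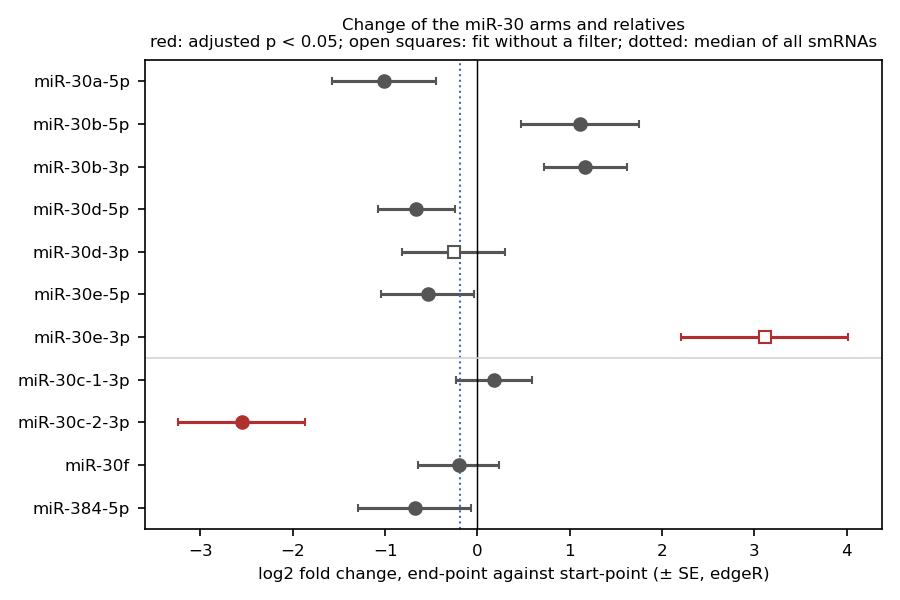
Log2 fold change of end-point against start-point with its standard error (horizontal axis, edgeR) for the 7 arms above the grey line and 4 relatives below it. Red marks an adjusted p under 0.05, open squares come from the fit without a filter, and the dotted line is the median of all smRNAs at -0.19; miR-30c-2-3p lies at -2.56 and miR-30e-3p at 3.11.

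Of the 5p arms, miR-30a-5p is the family member best known for targeting Beclin 1. At the start-point it held 168 CPM in the lowest library, 259 CPM at the median and 476 CPM in the highest, and at the end-point 0, 68.4 and 278 CPM. End-point libraries 1 and 7 had 0 counts, and 5 of 7 end-point libraries lay below the lowest start-point library, while libraries 3 and 5, with 9 and 21 counts, lay within the start-point range. Counts of 0 in these shallow libraries allow levels of up to 54.8 and 47.0 CPM. The end-point log2 fold change was -1.01 ± 0.56 (SE), with an edgeR adjusted p of 0.172. With limma-voom it was -1.76, with an adjusted p of 0.0469, and leaving out the 3 shallow libraries gave -0.45 (edgeR adjusted p 0.396). Leaving out end-point library 7 alone gave -0.65. In the 6 mice sampled at both time points it was lower at the end-point in 6 of 6, by a median of -1.52 on the log2 CPM scale. The differences ran from -0.03 in mouse 3, with 297 and 278 CPM, to -5.12 in mouse 11. The differences of mice 1 (-3.76) and 11 include the end-point libraries with 0 counts, so their size depends on depth and on the count added. By mean CPM it was also lower in 6 of 6, as were 17.3% of all 1270 smRNAs, while 4.88% were higher in all 6.

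The arm miR-30d-5p, made from the hairpin next to that of miR-30b, held 42.9, 181 and 397 CPM at the start-point (lowest, median, highest) and 42.2, 66.2 and 217 CPM at the end-point. End-point libraries 3 and 7 held 217 and 204 CPM and lay within the start-point range, and the other 5 held 42.2 to 73.1 CPM, below all but 1 start-point library. Its end-point counts were low, at 4 to 13 per library. Between time points the log2 difference was -0.66 ± 0.42 (SE), with an edgeR adjusted p of 0.23. It was lower at the end-point in 6 of 6 mice, by -0.53 to -2.03, where 17.3% of all smRNAs had lower mean CPM in all 6. With mouse as a block in edgeR neither miR-30a-5p nor miR-30d-5p was called. With mouse as a random effect in limma-voom, miR-30a-5p was called at -1.76 (adjusted p 0.0486) and miR-30d-5p was not (adjusted p 0.283).

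The arm miR-30e-5p, made in the Nfyc intron, was the most abundant 5p arm at the start-point, with 152, 439 and 1451 CPM (lowest, median, highest), and held 80.3, 248 and 785 CPM at the end-point. Start-point libraries 2 and 5 were the highest, at 1451 and 1323 CPM, and end-point library 1 stood above the other end-point libraries. The fitted log2 fold change of miR-30e-5p was -0.54 ± 0.50 (SE), with an edgeR adjusted p of 0.427, and it was lower in 4 of 6 mice. Leaving out start-point library 2 gave -0.22, leaving out start-point library 5 gave -0.27, and limma-voom gave -0.25.

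The arm miR-30b-5p ranged widely at the end-point. It held 21.5, 207 and 526 CPM at the start-point and 34.2, 238 and 988 CPM at the end-point. End-point libraries 1, 2 and 4 held 34.2 to 37.1 CPM, on 2, 6 and 4 counts. The 36.5 CPM of library 1 is below that library's limit of 54.8 CPM. Libraries 5 and 7 held 988 and 830 CPM and lay above every start-point library. Library 3 equalled the highest start-point library to within 1 CPM. Its log2 fold change was 1.11 ± 0.64 (SE), with an edgeR adjusted p of 0.19, and without end-point library 5 it was 0.44. Within mice it was higher at the end-point in 4 of 6, with differences from -3.60 to 4.50 on the log2 CPM scale.

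Among the 3p arms, miR-30b-3p was the most abundant arm of the family, with 1148 of the 3590 counts. It held 256, 469 and 816 CPM at the start-point (lowest, median, highest) and 111, 836 and 1957 CPM at the end-point. Of the end-point libraries, 4 of 7 lay above the highest start-point library and 1 below the lowest; the 3 highest, at 1361 to 1957 CPM, were the 3 libraries under 75000 counts. The end-point to start-point difference of miR-30b-3p was 1.17 ± 0.45 (SE, log2), with an edgeR adjusted p of 0.0504, just outside the threshold. The DESeq2 Wald test gave 1.10 with an adjusted p of 0.021. Leaving out the 3 shallow libraries gave 0.86 with an edgeR adjusted p of 0.182, and leaving out end-point library 4 gave 1.39 with 0.0168. Without start-point library 6 the edgeR adjusted p was 0.0325, without start-point library 7 it was 0.0484, and with a filter of at least 10 counts in 7 libraries it was 0.0386. With mouse as a block it was 0.261, and in male libraries only, where the value was 0.82, it was 0.319. It was higher at the end-point in 5 of 6 mice.

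The arm miR-30d-3p did not pass the filter. It held 3 to 31 counts in start-point libraries (19.7, 73.1 and 223 CPM for the lowest, median and highest) and 0 to 7 counts in end-point libraries (0, 33.1 and 110 CPM). In edgeR without a filter its log2 fold change was -0.26 ± 0.56 (SE), with an adjusted p of 0.752. Without end-point library 3 the value was 0.015, so its direction was not settled.

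The arm miR-30e-3p, the usual passenger strand of the Nfyc-intron hairpin, also failed the filter. Its counts were 0 in 7 start-point libraries and 7, 1 and 5 in libraries 3, 8 and 9, a total of 13 counts. At the end-point they were 0 in libraries 1 and 2, both labelled mouse 1, and 3, 2, 9, 17 and 12 in libraries 3 to 7, a total of 43 counts. In CPM, 4 of 7 end-point libraries lay above the highest start-point library, with 76.0 to 188 CPM against a start-point maximum of 47.3 CPM. In edgeR without a filter, where 31.3% of 1487 smRNAs were called, its log2 fold change was 3.11 ± 0.91 (SE), with an adjusted p of 0.0134. Since most start-point libraries were at 0, this fitted value depends on the prior count and is no bound. With mouse as a block the adjusted p was 0.114 in edgeR, and in male libraries only it was 0.177. It was higher in CPM at the end-point in 5 of the 5 mice in which it was seen. Mouse 1 had 0 counts at both time points. In mouse 3 the counts went from 7 to 3. The 92.8 CPM of end-point library 3, 1 of the 4 above the start-point maximum, was that library's limit of 3 counts. In mouse 5 the counts were 0 and 2. Among the 1270 smRNAs that passed the filter, which leaves this arm out, 4.88% had higher mean CPM in all 6 mice.

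**Figure D3:**
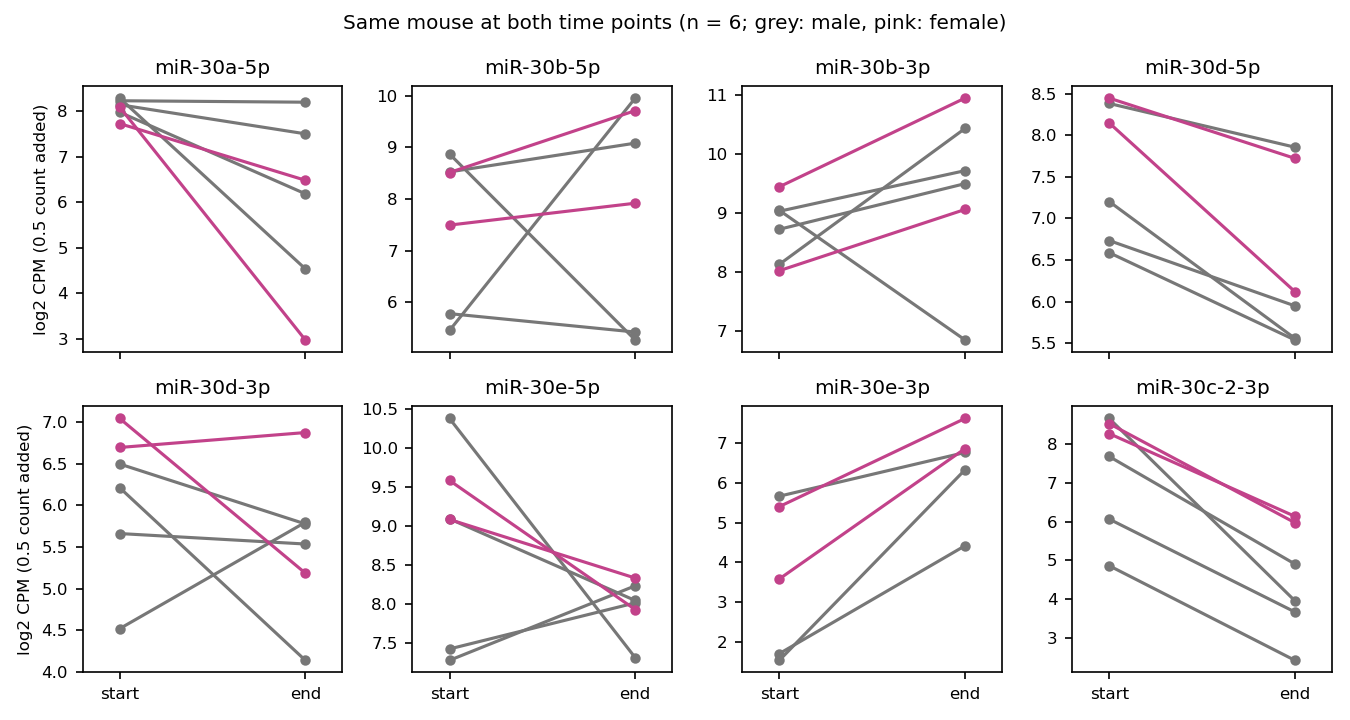
Level of the 7 arms and of miR-30c-2-3p at the start-point and the end-point of the same mouse (log2 CPM after adding 0.5 count; n = 6 mice, both end-point libraries of mouse 1 averaged; grey male, pink female). For miR-30e-3p, mouse 1 had 0 counts at both and is not drawn. The arms miR-30a-5p, miR-30d-5p and miR-30c-2-3p were lower at the end-point in 6 of 6 mice. By mean CPM, 17.3% of all 1270 smRNAs were lower in all 6 mice.

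The balance of arms is given next, since a ratio of arms in a library needs no scaling by library total. Where an arm is near 0 counts, the ratio with 1 count added still depends on depth. For miR-30b the 3p arm outnumbered the 5p arm in most libraries. The 5p arm held 32.1 ± 19.9% of the hairpin's reads in start-point libraries (SD, n = 10) and 25.6 ± 16.6% in end-point libraries (SD, n = 7). It ranged from 2.20% (95% Wilson interval 0.605 to 7.66%, 2 of 91 counts) in end-point library 1 to 59.0% (47.9 to 69.2%, 46 of 78 counts) in start-point library 2. The log2 5p to 3p ratio was tested with limma across all hairpins with both arms past the filter. This test called 29.3% of 334 hairpins (13.8% lower and 15.6% higher). The ratio of miR-30b differed by -0.42 ± 0.81 (SE), with a limma adjusted p of 0.722. It changed sign, to 0.080, without the libraries under 75000 counts.

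For miR-30d the 5p arm led, with 68.9 ± 16.9% in start-point libraries (SD, n = 10) and 66.9 ± 20.5% in end-point libraries (SD, n = 7). The difference of its log2 ratio was -0.36 ± 0.59 (SE) in limma without a filter, with an adjusted p of 0.691. For miR-30e the 5p arm held 92.0 to 100% of the reads at the start-point and 55.6 to 100% at the end-point, with means of 98.6 ± 2.78% (SD, n = 10) and 81.7 ± 16.2% (SD, n = 7). End-point libraries 3, 5, 6 and 7 were the 4 lowest, and libraries 1 and 2 had no read of the 3p arm. The lowest share, in end-point library 7, was 15 of 27 counts, with a 95% Wilson interval of 37.3 to 72.4%.

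The log2 5p to 3p ratio of miR-30e was 5.20 ± 1.33 in start-point libraries (SD, n = 10) and 2.38 ± 1.76 in end-point libraries (SD, n = 7), with 1 count added to each arm. It fell by 2.81 ± 0.73 (SE) in limma without a filter, with an adjusted p of 0.00876, where 25.9% of 433 hairpins were called. With 5 counts added it fell by 1.90, with a limma adjusted p of 0.00753. In male libraries only the value was -2.41, with a limma adjusted p of 0.105, which ended the call. As the 3p arm was at 0 in most start-point libraries, the size of this change depends on the count added and on depth.

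**Figure D4:**
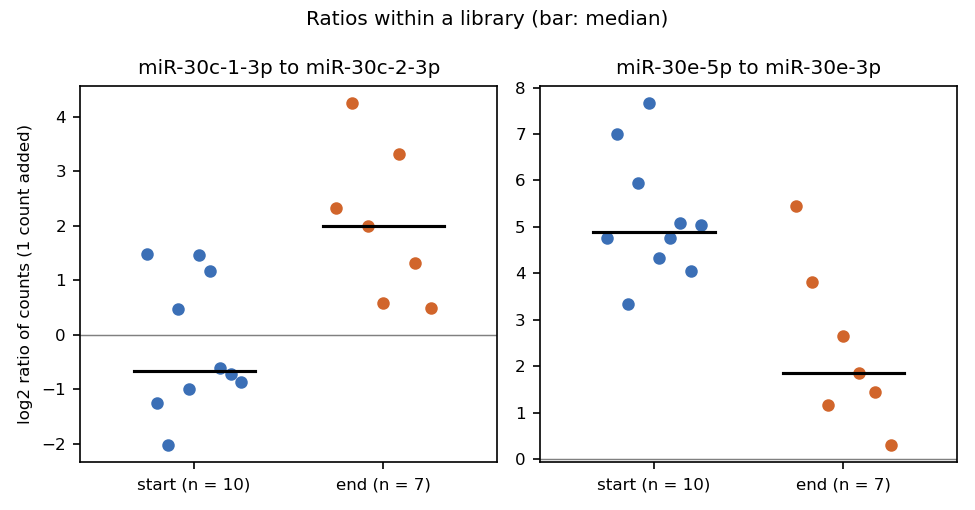
Log2 ratio of counts within each library (vertical axis, 1 count added to each) for miR-30c-1-3p to miR-30c-2-3p (left) and miR-30e-5p to miR-30e-3p (right), start-point (blue, n = 10) and end-point (orange, n = 7), with medians as bars. The left ratio was above 0 in 4 of 10 start-point and 7 of 7 end-point libraries, and the right ratio had medians of 4.90 and 1.85. In end-point libraries 1, 2 and 3 miR-30c-2-3p had 0 counts, so the left ratio could not fall below 0 there.

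The composition of the 4 measured 5p arms varied widely. In start-point libraries miR-30e-5p held 40.0 ± 14.1%, miR-30a-5p 27.1 ± 16.0%, miR-30d-5p 16.7 ± 7.29% and miR-30b-5p 16.3 ± 7.27% of their summed counts (SD, n = 10). In end-point libraries the shares were 39.8 ± 24.96% for miR-30e-5p, 34.1 ± 24.96% for miR-30b-5p, 13.5 ± 10.6% for miR-30a-5p and 12.5 ± 5.99% for miR-30d-5p (SD, n = 7). The share of each paralog overlapped between time points. A different arm led from library to library at the end-point: miR-30e-5p held 87.8% in library 1, and miR-30b-5p held 65.7% in library 5 and 65.4% in library 7. The 5p arms as a whole held 65.8 ± 15.8% of the 7 arms' counts in start-point libraries (SD, n = 10) and 47.2 ± 11.4% in end-point libraries (SD, n = 7), with ranges of 35.2 to 85.7% and 35.5 to 62.5%. This is a description of a sum over chosen members, and it was not tested.

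**Figure D5:**
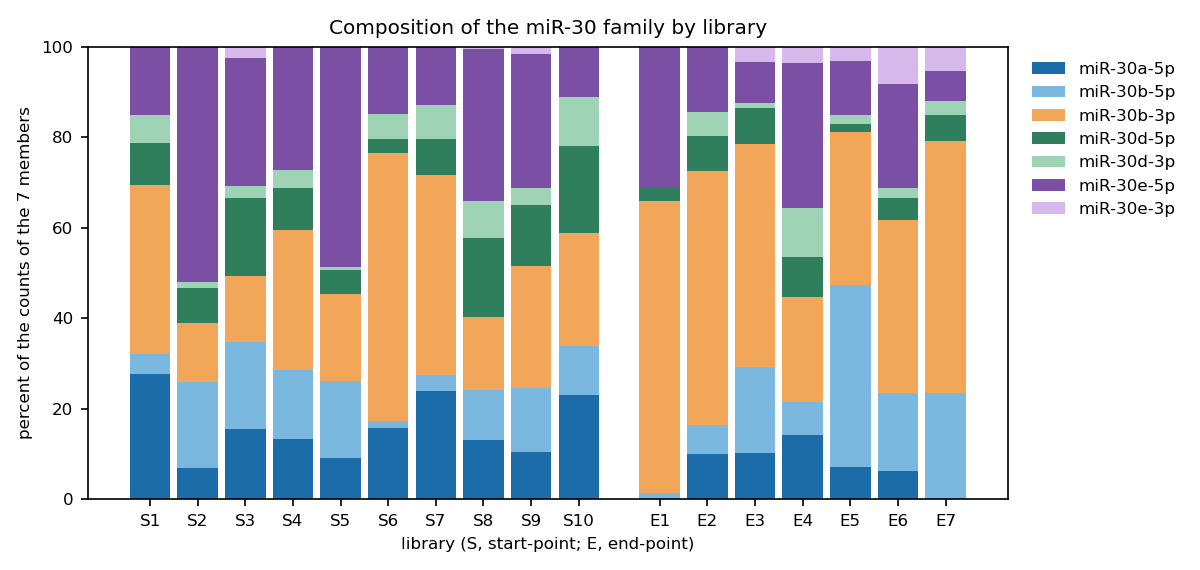
Share of the counts of the 7 arms held by each arm (vertical axis, percent) in each library, with start-point libraries S1 to S10 left of the gap and end-point libraries E1 to E7 right of it. The orange segment, miR-30b-3p, is the largest in several end-point libraries, and the 5p arms together run from 35.2 to 85.7% at the start-point and from 35.5 to 62.5% at the end-point.

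Some arms were low in the same start-point libraries. Libraries 1, 6 and 7 were the 3 lowest of the 10 start-point libraries for miR-30b-5p, miR-30d-5p, miR-30e-5p and miR-30c-2-3p, that is for 4 of the 11 arms and relatives. The same 3 libraries were below the other start-point libraries for 19.6% of the 1487 smRNAs. For miR-30e-5p these libraries held 152 to 204 CPM and the next library 231 CPM. For miR-30b-5p they held 21.5 to 51.6 CPM and the next library 176 CPM. They were not the lowest for miR-30a-5p, whose 3 lowest start-point libraries were 2, 4 and 8. The totals of libraries 1 and 7 were among the larger ones, at 155011 and 171498 counts, and library 6 held 93138. All 3 libraries came from male mice.

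Of the relatives, 4 were tested and 1 was called in edgeR, a share not above the 31.7% of all smRNAs. The called relative was miR-30c-2-3p, the 3p arm of the hairpin next to that of miR-30a. At the start-point it held 25.8, 255 and 584 CPM (lowest, median, highest), and at the end-point 0, 8.44 and 62.6 CPM. Counts were 3 to 81 at the start-point and 0 to 9 at the end-point, with 0 in end-point libraries 1, 2 and 3, which allows up to 54.8, 18.5 and 92.8 CPM. All 7 end-point libraries lay below the start-point median and 5 of 7 below the lowest start-point library. The limits of libraries 1 and 3 are above that lowest level of 25.8 CPM, so depth does not allow these libraries to be placed below it. Library 4, at 25.7 CPM on 3 counts, nearly equalled that level, which rests on 4 counts. It fell by 2.56 ± 0.69 (SE) on the log2 scale, with an edgeR adjusted p of 0.00759. It was lower in 6 of 6 mice, where 17.3% of all smRNAs had lower mean CPM in all 6. With mouse as a block the value was -2.61 (edgeR adjusted p 0.0519), which ended the call, while with mouse as a random effect in limma-voom it stayed called (-2.72, adjusted p 0.00599). Without the 3 shallow libraries it fell by 2.12, with an edgeR adjusted p of 0.0402. It passed the filter through its start-point counts and failed it in male libraries only. Start-point females held 420 ± 145 CPM (SD, n = 3) and males 167 ± 154 CPM (SD, n = 7). The males include the low libraries 1, 6 and 7, at 25.8, 32.2 and 64.1 CPM.

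The near-identical arm miR-30c-1-3p, from the Nfyc locus, held 83.9, 136 and 317 CPM at the start-point and 42.8, 94.0 and 160 CPM at the end-point. Its log2 fold change was 0.18 ± 0.41 (SE), where the edgeR adjusted p was 0.765. Scaled by library totals alone it was -0.52. The log2 ratio of miR-30c-1-3p to miR-30c-2-3p had a median of -0.66 at the start-point (range -2.02 to 1.49) and 2.00 at the end-point (range 0.49 to 4.25). This pair was compared after its values were seen, so the ratio is a description with no test. In start-point libraries 1, 4, 6 and 7 the ratio was also above 0. With 0 counts of miR-30c-2-3p in end-point libraries 1, 2 and 3 and 1 count added, their ratio could not fall below 0.

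By mean CPM over all 17 libraries the antisense arm miR-30f was the most abundant miRNA of the extended family, although miR-30b-3p had the higher mean at the end-point (962 against 845 CPM). It held 503, 741 and 3092 CPM at the start-point and 92.7, 540 and 1735 CPM at the end-point. It ranked 166 among the 1439 miRNAs, whereas miR-30e-3p, its near-complement, ranked 1399. For miR-30f the fold change was -0.20 ± 0.44 (SE, log2), with an edgeR adjusted p of 0.757. The arm miR-384-5p, which has the family seed and is best known from brain, held 29.2, 101 and 177 CPM at the start-point and 0, 16.9 and 137 CPM at the end-point. All end-point libraries but library 4 lay below the lowest start-point library. For the shallow end-point libraries 1, 3 and 7 the limit of 3 counts was 54.8, 92.8 and 47.0 CPM. These limits are above the lowest start-point level of 29.2 CPM, so depth does not allow these libraries to be placed below it. The miR-384-5p fold change was -0.68 ± 0.61 (SE, log2), with an edgeR adjusted p of 0.409. It was -1.53 by library totals alone (edgeR adjusted p 0.0518), -1.44 with limma-voom (adjusted p 0.0623) and -0.26 in male libraries only. Leaving out end-point library 4 gave -1.75 (edgeR adjusted p 0.0333), and without the 3 libraries under 75000 counts it was 0.15.

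The values of neighbouring hairpins can be set side by side. In the miR-30a and miR-30c-2 cluster, miR-30a-5p had a log2 fold change of -1.01 and miR-30c-2-3p of -2.56. In the miR-30b and miR-30d cluster the values were 1.11 for miR-30b-5p and -0.66 for miR-30d-5p. In the Nfyc intron they were -0.54 for miR-30e-5p and 0.18 for miR-30c-1-3p. Differences between these fold changes were not tested.

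As a comparison, a list of 13 broadly expressed guide strands, among them let-7a-5p and miR-16-5p, had 11 tested in edgeR, with 2 higher, 0 lower and a median log2 fold change of -0.28, where 16.1% of all smRNAs were higher and 15.5% lower. At its ends were miR-26a-5p at -1.04 (edgeR adjusted p 0.26) and miR-23a-3p at 3.03 (edgeR adjusted p 0.00456). The 5 smRNAs whose profile over the 17 libraries was nearest to that of the summed 5p arms were miR-341-3p, miR-497a-3p, miR-3098-5p, miR-124-3p and miR-7036a-3p. Their root mean square differences from that profile were 0.49 to 0.62 on the log2 scale, beside a median of 1.27 over 1261 candidates. The 5p arms' own differences from their sum were 0.63 for miR-30e-5p, 0.74 for miR-30d-5p, 0.95 for miR-30b-5p and 1.39 for miR-30a-5p. Each arm is part of that sum by its counts, while the candidates are not, so the arms and the candidates are not compared on equal terms. The value of miR-30a-5p includes its 0 counts in the shallow end-point libraries 1 and 7.

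Females were set against males in edgeR with time point as a covariate, and 0 of the 6 arms tested were called. The fit took the 17 libraries as independent, although 6 mice gave libraries at both time points. No fit for sex took mouse into account. Across all 1356 smRNAs 0% were called, and 8.7% had an unadjusted p under 0.05, as did 0 of the 6 arms. The DESeq2 Wald test gave adjusted p values for 3 of the 6 and called 0. With TMM factors the largest value of an arm was that of miR-30a-5p, at -0.73 ± 0.59 (SE, log2), where the edgeR adjusted p was 0.723. By library totals alone it was -0.13, and the largest was that of miR-30d-3p, at 1.25 (edgeR adjusted p 0.403). For the relative miR-30c-2-3p the value was 1.199 ± 0.62 (SE, log2), where the edgeR adjusted p was 0.613. In CPM, which takes no TMM factor, the ranges of the 3 female and 7 male start-point libraries did not overlap for 4 of the 11 arms and relatives, each higher in females, as for 15.3% of all 1487 smRNAs (0.403% were lower in females). These were miR-30d-3p (99.9 to 223 CPM in females, 19.7 to 87.5 CPM in males), miR-30c-1-3p (184 to 317 and 83.9 to 152 CPM), miR-30f (1321 to 3092 and 503 to 1308 CPM) and miR-384-5p (137 to 177 and 29.2 to 135 CPM). At the end-point, with 2 female and 5 male libraries, other arms were apart. These were miR-30c-2-3p (59.6 to 62.6 and 0 to 25.7 CPM) and miR-30e-3p (113 to 188 and 0 to 92.8 CPM). Of all smRNAs, 4.17% were apart with higher and 1.14% with lower levels in females. For miR-30c-2-3p the female levels rest on 9 and 4 counts, and male library 3 had 0 counts. The limit of library 3, 92.8 CPM, is above both female levels, so depth does not allow it to be placed below them.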

How the data were processed

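The deposited table gives whole-number counts per smRNA and library for 17 libraries, which the authors named raw read counts. Per the labels' protocols, libraries were made from fecal exosomal RNA with the QIAseq miRNA kit, which carries unique molecular identifiers. Per the submitters' processing notes, bcl2fastq and build GRCm38 were used. The aligner, the counting tool, the annotation and whether identifiers were collapsed are not given in the sources used here. The smallest maximum of any listed smRNA was 10 counts.

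Counts were tested with edgeR 4.0.16 (glmQLFit, glmQLFTest, TMM factors, filterByExpr, Benjamini-Hochberg over all smRNAs tested, R 4.3.3) at an adjusted p under 0.05, with time point as the design, or sex with time point. Standard errors were derived from the same fit. Arm ratios, log2((5p + 1)/(3p + 1)), were tested with limma 3.58.1 over the 334 hairpins with both arms past filterByExpr. The fit without a filter took all 433 hairpins with both arms. Profiles used log2 CPM with TMM factors and a prior count of 2. DESeq2 1.42.0 was an alternative. Scripts were tested on simulated data. Wilson intervals (95%) and the limit of 3 counts cover counting error only.

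Libraries were paired by the mouse identity in the labels: the deviations of same-mouse libraries from the group means correlated weakly, by 0.0943 on average over 7 pairs (-0.0721 to 0.26). P-values measure the spread between these libraries, and end-point libraries 1 and 2 carry 1 mouse label. Named were all arms of the family and its relatives, the ends of the guide-strand list and the 5 nearest profiles. The members, lists and the limit of 75000 counts were chosen with earlier results of these data known. Arms that failed the filter were read from fits without one, which was decided after the data were seen.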

Additional observations from a re-analysis of the deposited data

Results flagged for a closer look

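Of 48 groups of libraries checked, 6 held a library far from the others of its group, where chance alone flags about 1 in 20. Start-point library 10 stood above the other start-point libraries for miR-30a-5p, at 476 CPM, and for miR-30d-3p, at 223 CPM. End-point library 1 stood above the other end-point libraries for miR-30e-5p, at 785 CPM. End-point library 4 stood apart for miR-384-5p, at 137 CPM, and for the share of miR-30d among the 3p arms, at 28.6%. Start-point library 3 stood apart for the share of miR-30e among the 3p arms, at 12.7%, since 7 start-point libraries had no read of that arm. The part of depth in these values was not tested.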

How the results depend on the processing

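The count of smRNAs called between time points, 402, was 77 with mouse as a replicate block, 70 with that block and end-point library 2 left out, and 153 in male libraries only. It ran from 317 to 406 with single libraries left out, and with library totals only 133 of 444 calls were higher, beside 205 of 402, and with limma-voom 122 of 362. The count of hairpins called for arm ratio, 98, was 44 with the block on mouse and 28 in male libraries only. The count for sex, 0, was 1 with library totals only and 41 with the DESeq2 Wald test. In edgeR with the block on mouse, miR-30c-2-3p (edgeR adjusted p 0.0519) and miR-30e-3p (0.114, without a filter) lost their calls, and no other call among the arms and relatives changed. With that block and the library left out, miR-30c-2-3p had an edgeR adjusted p of 0.0614.

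Time point values that changed sign were all uncalled. These were miR-30c-1-3p with library totals only (-0.52) and with the block and the library left out (-0.22), miR-30f with the block (0.034) and with the block and the library left out (0.12), and, without libraries under 75000 counts, miR-384-5p (0.15) and, without a filter, miR-30d-3p (0.21) and the miR-30b ratio (0.080). With single libraries left out, miR-30c-1-3p ran from -0.091 to 0.43, miR-30d-3p from -0.40 to 0.015 and the miR-30b ratio from -0.79 to 0.095. For sex, with library totals only, miR-30b-5p was 0.36, miR-30b-3p 0.26 and miR-384-5p 0.37, and with single libraries left out they ran from -0.47 to 0.56, from -0.62 to 0.016 and from -0.48 to 0.13. The cause was not tested. In male libraries only and in 7 of 17 fits with 1 library left out, miR-30c-2-3p failed the filter and has no value; arm ratios of miR-30a and miR-30c were not run, as a partner arm was not analysed here. The share of miR-30e among the 3p arms at the start-point, 1.94%, was 0.741% without library 3, and that of miR-30d at the end-point, 7.80%, was 4.34% without library 4 and 11.9% without the libraries under 75000 counts. Depth limits the precision of miR-30d-3p, miR-30e-3p and the end-point levels of miR-30c-2-3p, whose counts are low. It also limits the end-point levels of miR-30d-5p (4 to 13 counts), miR-384-5p (0 to 16), miR-30a-5p (0 to 21) and miR-30c-1-3p (3 to 24). For miR-30b-5p the same holds in end-point libraries 1, 2 and 4, with 2, 6 and 4 counts.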
